A study of Oryza sativa with 12 samples.

Results

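The plasma membrane aquaporins (PIP) of rice were described here through 8 genes, PIP1-1, PIP1-2, PIP1-3, PIP2-1, PIP2-2, PIP2-4, PIP2-6 and PIP2-7. The members were all probe sets matched to a single gene of one of these names, which gave 11 probe sets for 8 of the 17905 genes that the arrays name. PIP2-1 had 3 probe sets, PIP2-2 had 2 and each of the other 6 genes had 1. The probe sets of PIP2-1 and PIP2-2 are told apart by the ending of their identifiers, S1_a_at, S1_x_at and S2_at for PIP2-1 and S1_s_at and S1_at for PIP2-2. The rule uses names and no measured value, but it was chosen with earlier results of these data known. PIP2-5 and PIP2-8, which also have a probe set, fall outside it. Gene expression had been measured on 12 Affymetrix arrays, in 4 groups of 3: osnox2 drought, osnox2 control, WT drought and WT control. The RNA came from the youngest fully expanded leaves of greenhouse plants aged 2.5 months. OsRbohA, the subject in the study's title, is an NADPH oxidase of the plasma membrane, an enzyme that makes superoxide outside the cell. The osnox2 plants were a T-DNA insertion mutant, and the WT plants were Oryza sativa ssp. Japonica cv. Dongjin. A pair of 1 osnox2 and 1 WT plant shared a pot, so both genotypes dried in the same soil. Drought leaves were taken on day 15 of the drought treatment, at a soil moisture of 8.5%, and control leaves on day 0, at 47.3%. Drought and the later harvest day therefore cannot be told apart. The name OsRbohA is not in the annotation used here, so the value of the disrupted gene was not analysed here. Nothing in the labels says which insertion line was used, whether it was 1 line, or at what hour leaves were cut.

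PIPs are tetrameric channels that let water, and for some members other small molecules, cross the plasma membrane along its gradient. Plant PIPs form the groups PIP1 and PIP2: PIP2 proteins move water well on their own, whereas many PIP1 proteins do so mainly once they have joined a PIP2 partner, which also carries them to the cell surface. In leaves they act in the flow of water from the veins into the mesophyll, and transcripts of several rice PIP genes are known to vary with the time of day.

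Values are log2 MAS5 signals, so a difference of 1 is a doubling, and the PIP levels are compared only within a probe set, because each probe set binds its target with its own strength. The array medians lay between 5.08 and 5.43. All 11 PIP probe sets entered the tests, for which a probe set had to exceed the median of its array on 3 or more arrays. PIP2-4 exceeded the median on 6 arrays and the other 10 probe sets on all 12. In whole leaves, fewer cells of a type and less RNA per cell cannot be told apart. The RNA carried most leaf markers near the top of the scale. The 20 probe sets for the 10 genes of the mesophyll list had a median percentile of 98.5. Their values spanned percentiles 8.6 to 100, and 18 of the 20 passed the filter. Of 6 root probe sets 1 passed it, that of the silicon channel NIP2-1.

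The control arrays were split by the clock state of their leaves, which the files show and the labels do not give. LHY is a transcription factor that the clock switches on around dawn, and PCL1 is a clock gene that peaks around dusk. The rule set the mean of the 2 LHY probe sets above or below the PCL1 probe set, so it ordered the levels of different probe sets. LHY stood above PCL1 on replicates 1 and 2 of the osnox2 control and on replicate 1 of the WT control, which are called morning-like here. Within the brighter LHY probe set the signal was 13.51 to 13.79 on these 3 arrays and 7.31 to 8.99 on the other 9, and PCL1 read 5.59 to 6.16 and 14.33 to 14.99. The second LHY probe set read 0.55 to 2.62 on the 3 arrays, below the array medians, and overlapped the others. All 6 drought arrays and the remaining 3 control arrays were evening-like. Since the split was read from these data, differences along it are given as a description, with no test. Marker lists were summed per array and compared on the log2 scale, with the 3 morning-like arrays given first and the other 9 second. The mesophyll list was higher, at 18.41 to 18.65 against 17.58 to 17.81, but its members did not move together. A probe set of RCAA1, from this list, read 15.06 to 15.23 against 11.55 to 12.93. A probe set of RBCS overlapped, at 14.30 to 14.70 against 14.22 to 14.64. That of GLO4 was mostly lower, at 11.59 to 11.83 against 11.79 to 12.16. The sum of the panicle and seed list was higher, at 10.74 to 11.00 against 10.16 to 10.55. Only 4 of its 11 probe sets passed the filter, and those of GLUA-2 ran opposite ways. The brighter one read 10.50 to 10.81 against 9.68 to 10.17, and the dimmer one 6.06 to 6.95 against 7.27 to 7.65. The phloem and guard cell list matched only SUT1 and SWEET11, with no guard cell gene among them. Its sum overlapped, at 9.25 to 10.23 against 9.98 to 11.83. So did the dividing cell list, at 10.80 to 11.06 against 10.35 to 10.82, and the root list, at 8.53 to 9.64 against 8.07 to 9.67. The part of these markers in the PIP values was not tested. Among the drought arrays, replicate 1 of osnox2 read near control level for 3 drought marker genes given with PIP2-6. Without it none of the 11 PIP probe sets passed for drought in osnox2 (limma, smallest adjusted p = 0.476) or for osnox2 against WT under drought (smallest adjusted p = 1). In those fits 0.0281% and 0.0406% of all probe sets passed, so the counts of 0 say little about the PIP genes.

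Most probe sets of the PIP members were higher in the morning-like control leaves. On the 3 morning-like control arrays 8 of the 11 probe sets were above all 3 evening-like control arrays and 2 were below all of them, and PIP2-6 overlapped. The probe sets of PIP2-5 and PIP2-8, outside the rule, also overlapped. Of all 32012 probe sets 17.2% were higher without overlap and 25.7% lower. Against all 9 other arrays, drought included, 7 PIP probe sets were higher without overlap (9.44% of all probe sets) and 2 lower (15.1%). The median difference between morning-like and evening-like control arrays was 1.69 over the PIP probe sets and -0.12 over all probe sets, and the median absolute difference was 1.90 and 0.47. Each direction held within both genotypes for the 10 probe sets that separated.

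**Figure D1:**
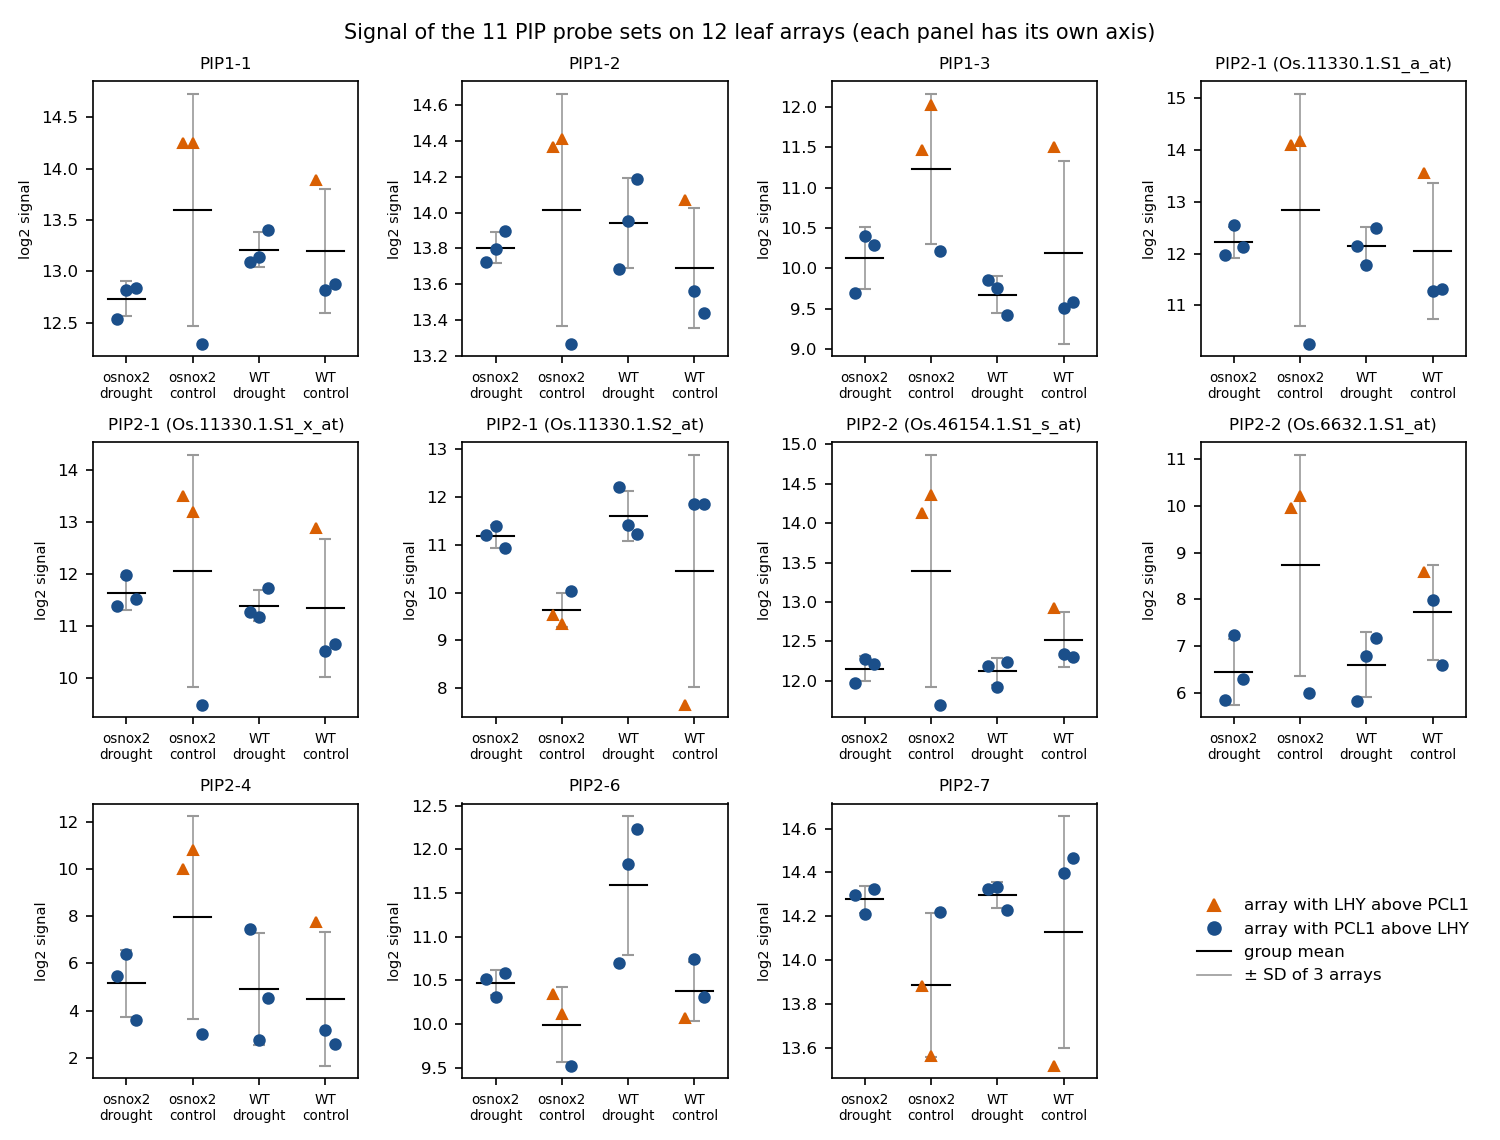
Log2 signal of the 11 PIP probe sets on each of the 12 arrays, in the groups osnox2 drought, osnox2 control, WT drought and WT control, with the group mean (black line) and ± SD of 3 arrays (grey). Triangles are the 3 morning-like control arrays and circles the other 9: the triangles lie highest in 7 panels, lowest for PIP2-7 and for the PIP2-1 probe set S2_at, and within the circles for PIP2-6. For PIP1-2 a WT drought array at 14.19 reaches them.

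Among the PIP1 genes, PIP1-1, whose protein is known to gain water transport in the presence of a PIP2 partner, read 14.24, 14.25 and 13.89 on the morning-like control arrays (osnox2 replicates 1 and 2, then WT replicate 1) and 12.30, 12.82 and 12.88 on the evening-like ones (osnox2 replicate 3, then WT replicates 2 and 3), an order kept for the other members. All 3 morning-like arrays were the higher ones, and the difference of means was 1.46, or 2.76-fold, with 1.95 within osnox2 and 1.04 within WT. PIP1-2, a PIP1 gene of leaves, read 14.37, 14.41 and 14.07 against 13.27, 13.56 and 13.44, a difference of 0.86, or 1.81-fold. It was the smallest difference among the 8 probe sets that were higher, and 1 drought array, at 14.19, was above the lowest morning-like one. PIP1-3, a PIP1 gene also known as RWC3, read 11.46, 12.02 and 11.50 against 10.21, 9.51 and 9.58. The difference was 1.90, or 3.72-fold, and it was of like size in both genotypes, 1.53 in osnox2 and 1.96 in WT.

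PIP2-1, a PIP2 gene whose protein is known as an effective water channel, showed opposite patterns in its own probe sets. S1_a_at read 14.10, 14.18 and 13.57 on the morning-like control arrays and 10.26, 11.28 and 11.32 on the evening-like ones, a difference of 2.99, or 7.97-fold. S1_x_at, designed on the same cDNA, read 13.50, 13.19 and 12.89 against 9.49, 10.53 and 10.66, a difference of 2.97. S2_at, designed on another cDNA of the gene, read 9.53, 9.34 and 7.66 against 10.03, 11.84 and 11.86, a difference of -2.40. The first pair was thus high, and the last low, on the same 3 leaves. For S2_at the difference was -0.59 within osnox2, where the single evening-like control array lay close to the morning-like ones, and -4.19 within WT. The values of the 3 probe sets are therefore given side by side. A PIP1 or PIP2 transcript of like sequence may add to a probe set of the x or s type, and its share cannot be read from these values.

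In the annotation of assembly ASM3414082v1, PIP2-4, PIP2-5 and PIP2-1 lie in this order on chromosome 7 with no protein-coding gene between them. PIP2-4, in rice known mainly from roots, read 10.02, 10.83 and 7.76 on the morning-like control arrays and 3.01, 3.16 and 2.58 on the evening-like ones. The evening-like values are below the array medians, so the difference of 6.62 on the log2 scale is set by dim signals. After adding 16 or 64 units to every signal before the log it was 5.02 or 3.54. On the drought arrays PIP2-4 read 5.47, 6.40 and 3.59 in osnox2 and 7.48, 2.75 and 4.52 in WT, a scatter that covers most of the gap. PIP2-5, which is not a member and is likewise known from roots, read 7.87 and 9.13 on the osnox2 morning-like arrays but 5.29 on the WT one, against 4.32, 5.32 and 4.49 on the evening-like control arrays. For PIP2-5 the WT morning-like array thus stood with the evening-like ones. A probe set that matches both PIP2-1 and PIP2-5, and so falls outside the rule, read 11.94, 11.89 and 10.89 on the morning-like control arrays and 8.09, 9.10 and 8.95 on the evening-like ones, in the direction of the first pair of PIP2-1 probe sets.

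**Figure D2:**
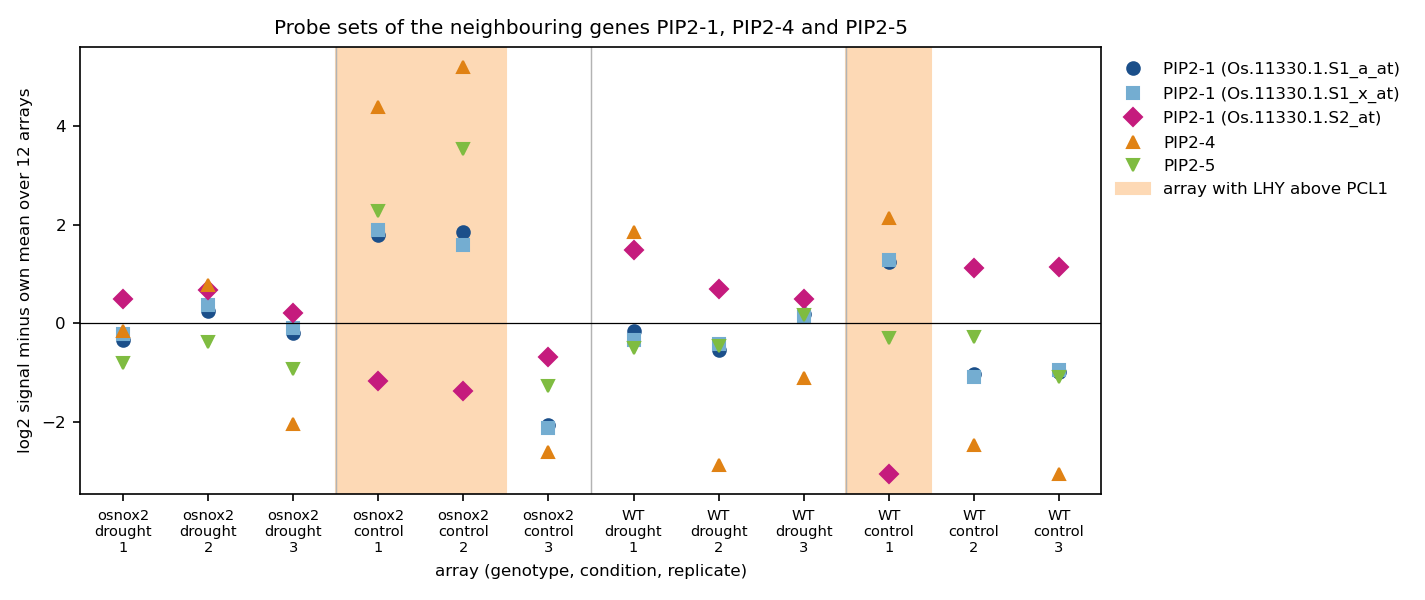
Signal of the 3 PIP2-1 probe sets, PIP2-4 and PIP2-5 on the 12 arrays, each as log2 signal minus its own mean over the arrays, with the 3 morning-like control arrays shaded. The PIP2-1 probe sets S1_a_at and S1_x_at move together and are high in the shaded columns, where S2_at is low, and PIP2-5 is high in the 2 shaded osnox2 columns but not in the shaded WT column.

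PIP2-2, another PIP2 gene, had a bright and a dimmer probe set that moved in the same direction. S1_s_at read 14.13, 14.36 and 12.92 on the morning-like control arrays and 11.70, 12.34 and 12.30 on the evening-like ones, a difference of 1.69. S1_at read 9.95, 10.22 and 8.58 against 6.01, 7.99 and 6.60, a difference of 2.72. For both probe sets the difference was larger within osnox2, at 2.55 and 4.08, than within WT, at 0.60 and 1.28, and with 1 or 2 arrays on each side this was not tested. PIP2-7, known in rice as a PIP of leaf blades, ran the other way, with 13.88, 13.56 and 13.52 against 14.22, 14.40 and 14.47, a difference of -0.71. Its 9 other arrays lay within 14.21 to 14.47, the most even level among the members. PIP2-6, also a PIP2 gene, read 10.35, 10.12 and 10.07 against 9.52, 10.74 and 10.30, and the difference of -0.012 lay within the spread of both sets.

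**Figure D3:**
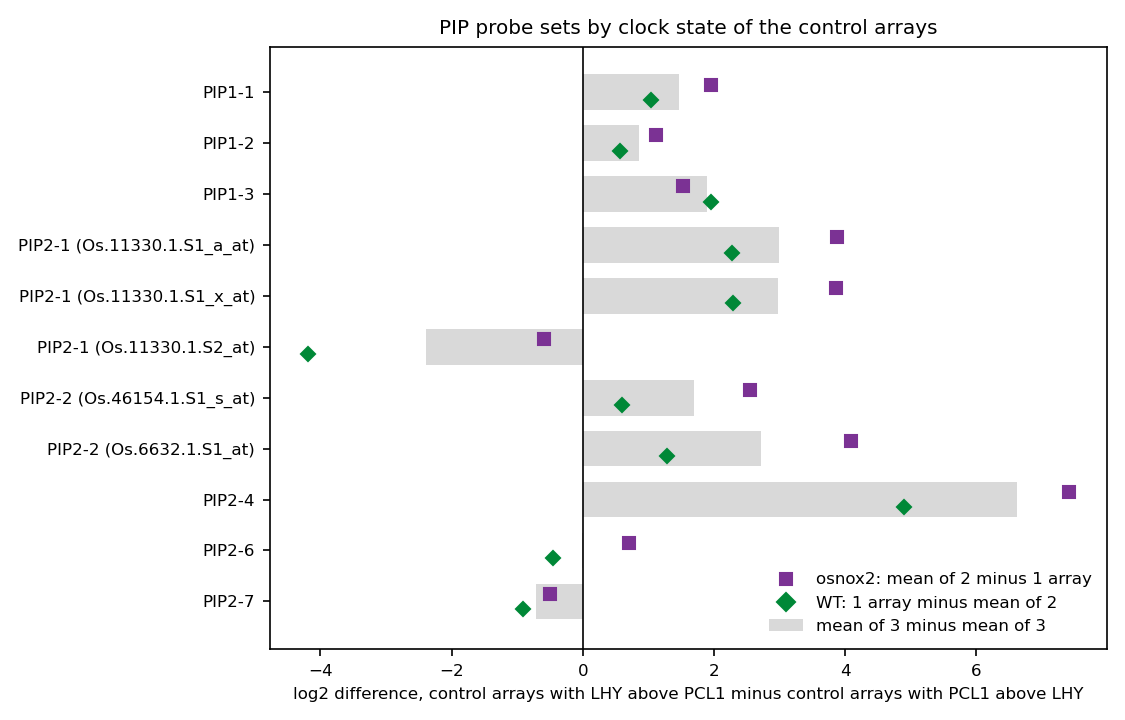
Difference between morning-like and evening-like control arrays for each PIP probe set, on the log2 scale: grey bars are the mean of 3 arrays minus the mean of 3, squares the same within osnox2 and diamonds within WT. Of the bars 8 point right, PIP2-7 and the PIP2-1 probe set S2_at point left, and PIP2-6 has almost no bar, at -0.012, with its genotypes on opposite sides of 0.

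For 10 of the 11 PIP probe sets the residual spread was smaller without the morning-like arrays. These 10 are the ones that separated by clock state, so their narrower spread follows from that split and adds nothing to it. The share of all probe sets with a narrower spread was not determined. With all 12 arrays the residual SD was 1.32 for the PIP2-1 probe set S1_a_at, 0.65 for PIP1-1, 0.77 for the PIP2-2 probe set S1_s_at and 0.31 for PIP2-7, against a median of 0.42 over all probe sets. Without the 3 morning-like arrays the same probe sets had residual SDs of 0.30, 0.15, 0.15 and 0.058. PIP2-6 kept its spread, with 0.49 and 0.53. Each comparison that follows is therefore given both ways. Without the 3 arrays the osnox2 control has 1 array left, whose variation is taken to equal that of the other groups, and the WT control has 2. Comparisons that share a group of arrays are not independent of each other, and the labels call the samples biological replicates without saying which plants or pots they came from.

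Drought in osnox2 compared leaves of the mutant on dry soil with leaves of the mutant on wet soil. With all 12 arrays none of the 11 PIP probe sets passed (limma, Benjamini-Hochberg adjusted p under 0.05), beside 170 of 32012 probe sets, or 0.531%. An unadjusted p under 0.05 was reached by 2 of the 11, both of PIP2-2, and by 18% of all probe sets, so the share was near that of the array as a whole. S1_s_at read 11.98, 12.28 and 12.21 under drought, against 14.13, 14.36 and 11.70 in the control, a difference of -1.24 ± 0.55 (SE, n = 3 arrays a group; adjusted p = 0.271). S1_at read 5.85, 7.23 and 6.29 against 9.95, 10.22 and 6.01, a difference of -2.27 ± 0.99 (adjusted p = 0.265). In both, the drought arrays lay near the single evening-like control array. The other probe sets differed by between -2.80 and 1.54, and 3 of the 11 differences were positive. Their median was -0.62, beside 0.084 over all probe sets. The PIP2-1 probe set S2_at alone had groups that did not overlap, with 11.21, 11.39 and 10.92 under drought against 9.53, 9.34 and 10.03 in the control (1.54 ± 0.89, adjusted p = 0.378). Among all probe sets 14.5% were higher under drought without overlap.

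In osnox2 the sign of the difference turned for 7 of the 11 PIP probe sets when the 3 morning-like arrays were left out: S1_a_at and S1_x_at of PIP2-1, both of PIP2-2, PIP1-1, PIP1-2 and PIP2-4. The PIP2-1 probe set S2_at stayed positive, at 1.15 without them. How many of all probe sets turned sign was not counted, so the 7 cannot be read as particular to the PIP genes. Without the 3 morning-like arrays, 2 of the 11 PIP probe sets passed, both of PIP2-1 and both higher under drought, beside 1.44% of all probe sets, and 6 had an unadjusted p under 0.05, beside 14.7%. S1_a_at, at 11.98, 12.55 and 12.12 under drought against 10.26 on the remaining control array, rose by 1.96 ± 0.28 (adjusted p = 0.0207). S1_x_at, at 11.39, 11.99 and 11.52 against 9.49, rose by 2.14 ± 0.26 (adjusted p = 0.0112). Both calls rest on that 1 control array. When replicate 1 of osnox2 drought, near control level in the drought markers, was left out as well, an alternative chosen after seeing the data, both passed again, at 2.08 ± 0.29 (adjusted p = 0.0307) and 2.26 ± 0.26 (adjusted p = 0.0199), beside 0.765% of all probe sets. With a term for the morning-like arrays in place of leaving them out, only S1_x_at passed, at 1.62 ± 0.35 (adjusted p = 0.0466), beside 1.86% of all probe sets. Conversely, without replicate 3 of the osnox2 control, so with morning-like control arrays only, 4 PIP probe sets were lower under drought, beside 17.2% of all probe sets called in either direction. They were PIP1-1 at -1.52 ± 0.28 (adjusted p = 0.00845), the PIP2-2 probe sets at -2.09 ± 0.19 (adjusted p = 0.000603) and -3.63 ± 0.61 (adjusted p = 0.00642), and the PIP2-1 probe set S1_a_at at -1.92 ± 0.58 (adjusted p = 0.0479). The value of S1_a_at thus had the opposite sign to the one given by the evening-like array. Without replicate 1 of the WT control, which narrows the shared spread, S2_at passed at 1.54 ± 0.26 (adjusted p = 0.0238), beside 2.49% of all probe sets.

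**Figure D4:**
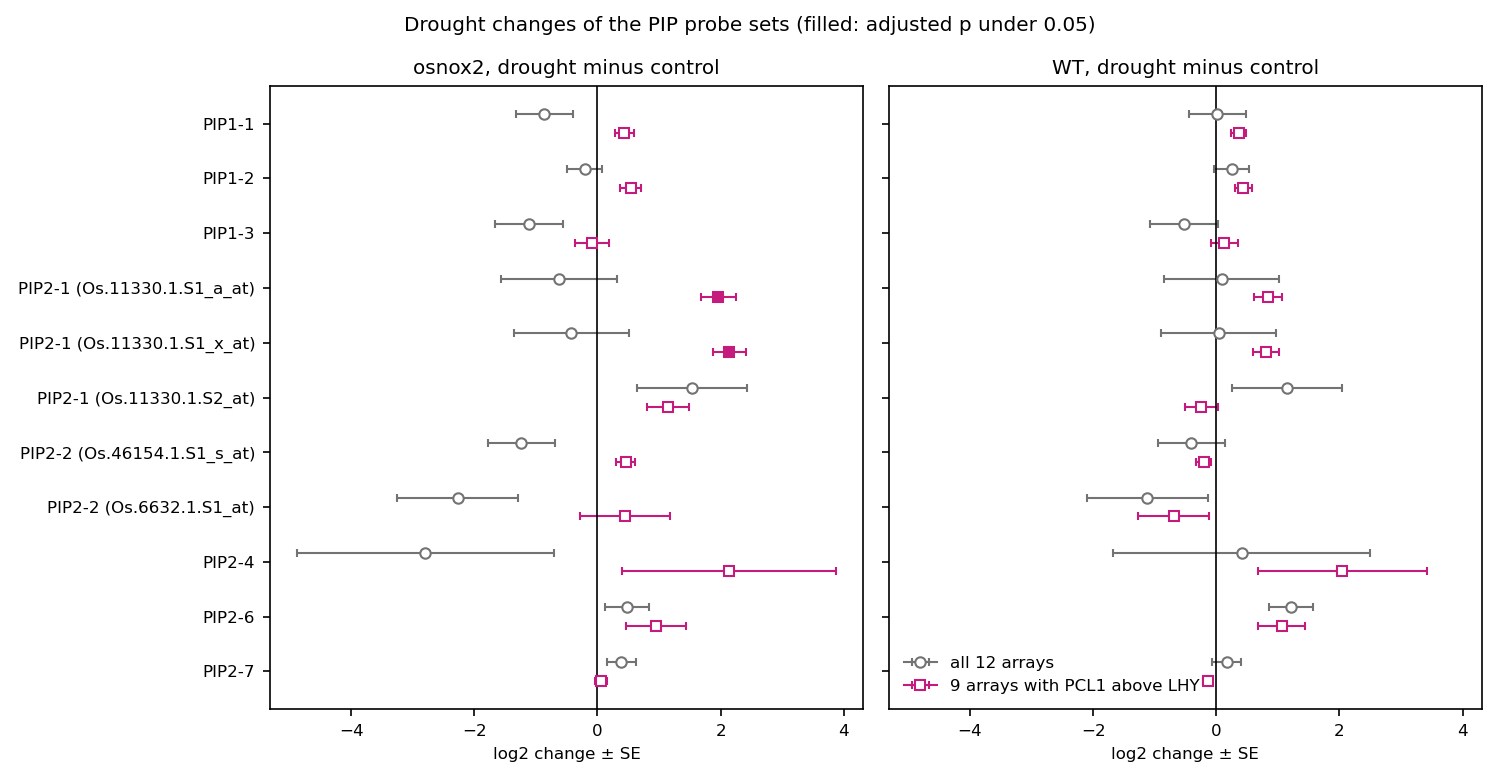
Drought minus control for each PIP probe set in osnox2 (left) and WT (right), as log2 change ± SE, with all 12 arrays (circles) and with the 9 evening-like arrays (squares). The filled squares are the 2 changes with an adjusted p under 0.05, for the PIP2-1 probe sets S1_a_at and S1_x_at in osnox2, at 1.96 and 2.14, while both circles lie left of 0.

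Drought in WT compared WT leaves on dry soil with WT leaves on wet soil. With all 12 arrays none of the 11 probe sets passed (limma), beside 0.131% of all probe sets, and PIP2-6 alone had an unadjusted p under 0.05, as had 10.8% of all probe sets. Of the differences 8 were positive, and the median was 0.087, beside 0.017 over all probe sets. PIP1-1 read 13.09, 13.14 and 13.41 under drought against 13.89, 12.82 and 12.88 in the control, where the morning-like array was the highest. Its difference was 0.015 ± 0.47 (adjusted p = 0.995), and the PIP2-1 probe set S1_a_at, at 12.15, 11.77 and 12.50 against 13.57, 11.28 and 11.32, differed by 0.087 ± 0.94 (adjusted p = 0.987). The PIP2-2 probe set S1_s_at was the single one whose groups did not overlap, with 12.19, 11.92 and 12.24 under drought against 12.92, 12.34 and 12.30 in the control (-0.40 ± 0.55, adjusted p = 0.847), and 8.07% of all probe sets were lower under drought without overlap.

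Without the morning-like WT control array and the osnox2 ones, none of the 11 passed for drought in WT (limma), beside 2.97% of all probe sets. At that share a count of 0 says little about the PIP genes. An unadjusted p under 0.05 was reached by 5 PIP probe sets, all higher under drought, beside 18.9% of all probe sets in either direction. The PIP2-1 probe sets S1_a_at and S1_x_at came nearest, at 0.84 ± 0.22 (adjusted p = 0.0852) and 0.80 ± 0.21 (adjusted p = 0.0811). PIP1-2, at 13.68, 13.95 and 14.19 under drought against 13.56 and 13.44 on the 2 remaining control arrays, differed by 0.44 ± 0.14 (adjusted p = 0.131). PIP1-1 differed by 0.36 ± 0.13 (adjusted p = 0.17). For these 4 probe sets every drought array exceeded both control arrays, as for 17.3% of all probe sets. PIP2-7 and the PIP2-2 probe set S1_s_at were below both control arrays on every drought array, as were 19.7% of all probe sets. PIP2-7 differed by -0.14 ± 0.072 (adjusted p = 0.356), PIP1-3 by 0.13 ± 0.22 (adjusted p = 0.802) and the PIP2-1 probe set S2_at by -0.24 ± 0.27 (adjusted p = 0.682).

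With all 12 arrays PIP2-6 had the largest difference beside its error among the members in WT drought leaves. Without the morning-like arrays PIP1-1, PIP1-2 and the PIP2-1 probe sets S1_a_at and S1_x_at came before it. PIP2-6 read 10.70, 11.84 and 12.23 in WT drought leaves, against 10.07, 10.74 and 10.30 in WT control leaves. Replicates 2 and 3 of the drought group lay above all controls and replicate 1 just below the highest of them, so the groups overlapped at 1 array. The difference was 1.21 ± 0.36 (adjusted p = 0.239), and 1.06 ± 0.38 (adjusted p = 0.181) without the morning-like arrays. Without replicate 1 of WT drought it was 1.66 ± 0.27 and passed (adjusted p = 0.042), beside 0.384% of all probe sets. In osnox2, PIP2-6 read 10.52, 10.32 and 10.59 under drought against 10.35, 10.12 and 9.52 in the control, a difference of 0.48 ± 0.36 (adjusted p = 0.493). The difference between both drought responses was -0.74 ± 0.50 (adjusted p = 0.986). For scale, RAB21, a dehydrin gene induced by drought and abscisic acid, read, in 1 of its 2 probe sets, 1.98, 8.84 and 7.55 in osnox2 drought leaves and 6.85, 11.77 and 13.03 in WT drought leaves, against 1.03 to 2.25 on the 6 control arrays. LEA19 and RAB16B, a late embryogenesis abundant gene and another dehydrin gene, were likewise high on the drought arrays other than osnox2 replicate 1: LEA19 read 2.15, 9.07 and 6.54 in osnox2 and 6.30, 8.32 and 9.64 in WT drought leaves against at most 2.00 on control arrays, and RAB16B 0.29, 8.25 and 7.01 and 5.03, 9.79 and 10.96 against at most 2.79. In both genotypes drought replicate 1 had the lowest value of all 3 markers. Within WT drought, RAB21 and PIP2-6 had the same order of replicates, and replicate 1 was the lowest in both. Within osnox2 drought the lowest RAB21 value and the middle PIP2-6 value came from the same array.

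**Figure D5:**
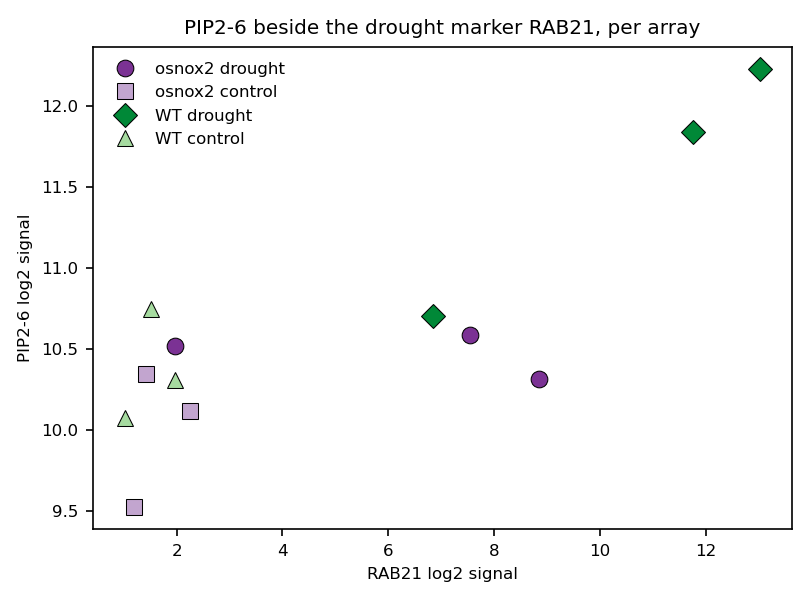
PIP2-6 log2 signal against the log2 signal of the drought marker RAB21 on the 12 arrays, with a symbol for each group. The WT drought arrays with RAB21 at 11.77 and 13.03 have the highest PIP2-6 values, 11.84 and 12.23, while the other 10 arrays lie between 9.52 and 10.74 for PIP2-6.

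Between the genotypes on wet soil (osnox2 control minus WT control), none of the 11 PIP probe sets passed with all 12 arrays (limma), beside 0.131% of all probe sets, and none had an unadjusted p under 0.05, beside 6.86%. The median difference was 0.70, beside -0.061 over all probe sets, and 8 differences were positive. The osnox2 control holds 2 morning-like arrays and the WT control 1, so clock state and genotype are mixed here. Without the 3 arrays none passed, beside 0.275% of all probe sets, and 5 had an unadjusted p under 0.05, all lower in osnox2, beside 10.4% in either direction. The median was -0.63, beside -0.026 over all probe sets. The PIP2-1 probe set S2_at, at 10.03 on the single osnox2 array against 11.84 and 11.86 in WT, was nearest to the threshold (-1.82 ± 0.36, adjusted p = 0.101). Without replicate 1 of the WT control alone it passed, at -2.22 ± 0.29 (adjusted p = 0.0185), beside 0.54% of all probe sets. Without replicate 3 of the osnox2 control, which leaves that group morning-like, the PIP2-2 probe set S1_s_at passed in the other direction, at 1.72 ± 0.19 (adjusted p = 0.00391), beside 3.9% of all probe sets.

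Between the genotypes on dry soil (osnox2 drought minus WT drought), all 6 arrays were evening-like. None of the 11 passed with all 12 arrays (limma), beside 0.103% of all probe sets, and PIP2-6 alone had an unadjusted p under 0.05, as had 5.02% of all probe sets. PIP2-6, at 10.52, 10.32 and 10.59 in osnox2 against 10.70, 11.84 and 12.23 in WT, differed by -1.11 ± 0.36 (adjusted p = 0.643). PIP1-1, at 12.54, 12.82 and 12.84 in osnox2 against 13.09, 13.14 and 13.41 in WT, differed by -0.48 ± 0.47 (adjusted p = 1). In these 2 probe sets every osnox2 array was below every WT array, as in 8.21% of all probe sets. With the spread taken from the 9 evening-like arrays the differences were -1.11 ± 0.34 (adjusted p = 0.238) and -0.48 ± 0.11 (adjusted p = 0.124), and none of the 11 passed, beside 0.59% of all probe sets. The remaining 9 probe sets differed by between -0.44 and 0.45. Highest of them was PIP1-3, higher in osnox2 by 0.45 ± 0.20 with the spread of the 9 arrays. PIP2-7 differed least, by -0.018 ± 0.065 in the same fit, with 14.30, 14.21 and 14.33 in osnox2 drought leaves and 14.33, 14.33 and 14.23 in WT drought leaves.

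The drought responses of both genotypes were also set against each other, as the osnox2 response minus the WT response. None of the 11 passed with all 12 arrays (limma), where 0% of all probe sets passed (1075, or 3.36%, had an unadjusted p under 0.05) and none of the 11 had an unadjusted p under 0.05, and the smallest adjusted p was 0.986. Without the 3 morning-like arrays none passed, beside 0.025% of all probe sets, and 4 had an unadjusted p under 0.05, beside 7.31%. In that fit the PIP2-1 probe sets differed by 1.12 ± 0.36 (adjusted p = 0.479), 1.34 ± 0.34 (adjusted p = 0.338) and 1.39 ± 0.43 (adjusted p = 0.453), and the PIP2-2 probe set S1_s_at by 0.66 ± 0.20 (adjusted p = 0.446).

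The members did not vary as 1 block. Over all 12 arrays, which fall into the 2 clock states, PIP1-1 had a Pearson r of 0.92 with the PIP2-1 probe set S1_a_at, -0.80 with PIP2-7 and 0.055 with PIP2-6, and PIP1-3 had r = -0.84 with S2_at. Over the 9 evening-like arrays, which share 1 clock state but come from 4 groups, the PIP2-1 probe sets S1_a_at and S1_x_at had a Pearson r of 0.99 with each other, and 0.44 and 0.39 with S2_at. PIP2-6 had r = 0.88 with PIP1-1 and 0.86 with PIP1-2, while PIP1-3 had r = -0.57 with PIP2-6 and -0.47 with PIP1-1. These are descriptions over arrays that share group differences, and no test was made. Averaged over the 11 probe sets, each centred on its own mean, the PIP level was -0.33, 0.097 and -0.34 in osnox2 drought, 1.20, 1.29 and -1.12 in the osnox2 control, 0.043, -0.31 and 0.051 in WT drought, and 0.37, -0.38 and -0.57 in the WT control. The drought arrays thus lay close together, and the osnox2 control held both the highest arrays and the lowest one. This mean takes in all 3 PIP2-1 probe sets, S2_at included, whose direction by clock state is opposite to that of the other 2. The probe sets were not scaled to a common spread, so PIP2-4, at 2.58 to 10.83 over the arrays, weighs most in the mean.

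That mean profile was set beside 2067 other named genes. The arrays fall into the 2 clock states, so each Pearson r over 12 arrays is given with the r over the 9 evening-like ones. The highest were TIP1-2 (0.97 and 0.95), APG4B (0.94 and 0.92), NIT4 (0.94 and 0.74), AHP2 (0.93 and 0.73) and TIP1-1 (0.93 and 0.95). TIP1-2 and TIP1-1 are tonoplast aquaporins, channels of the vacuole membrane. TIP1-2 read 13.12 to 13.72 on the morning-like arrays and 10.49 to 12.15 on the other 9. The lowest were DRB1 (-0.95 and -0.76), RPN-II (-0.94 and -0.72) and ARF12 (-0.94 and -0.85).

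The rest of the aquaporin family was measured by 20 further probe sets, of which 15 passed the filter: 9 of tonoplast TIP genes, 3 of NIP genes, 2 of SIP genes and that of PIP2-5. The 5 that did not were those of PIP2-8, TIP3-1, NIP3-1 and NIP4-1 and 1 of TIP2-1. With all 12 arrays none passed in any of the 5 comparisons (limma). An unadjusted p under 0.05 (shares of all probe sets as above) was reached by 5 of the 15 for drought in osnox2, 3 for drought in WT, 0 in osnox2 against WT on wet soil, 2 in the same contrast on dry soil and 1 when the drought responses were set against each other. Without the 3 morning-like arrays, the 2 probe sets of TIP1-1 had the largest differences beside their errors among the 15 for drought in osnox2. They were higher under drought by 1.52 ± 0.20 and 1.41 ± 0.15, again against 1 control array, and stand for 1 gene. In WT 1 TIP probe set passed, also of TIP1-1, higher under drought by 0.66 ± 0.12 (limma, adjusted p = 0.0273), beside 2.97% of all probe sets. TIP2-2 was lower in osnox2 than in WT under drought, by -1.01 ± 0.15 (adjusted p = 0.0306), beside 0.59% of all probe sets. No NIP, SIP or PIP2-5 probe set passed in that fit. By clock state the TIP genes did not share 1 direction: TIP4-1, in its brighter probe set, read 9.25 to 10.12 on the morning-like control arrays and 13.77 to 14.07 on the evening-like ones, opposite to TIP1-2.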

How the data were processed

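The authors deposited 1 table of log2 MAS5 signals for 57258 probe sets on 12 arrays, with MAS5 named in the submitters' processing notes without a version, and the values were used without further normalization. With the log undone, the mean without the lowest and highest 2% was 497 or 498 on every array. The 64 reporter probe sets were left out, and the 32012 others that exceeded the median of their array on 3 or more arrays were tested. Genes were named through the platform annotation and RefSeq (assembly ASM3414082v1): 22436 probe sets matched 1 gene, 95 several and 34663 none. The 4 group means of all 12 arrays were modelled in limma 3.58.1 under R 4.3.3 (lmFit, eBayes with an intensity trend, 8 residual degrees of freedom, two-sided contrasts, Benjamini-Hochberg adjustment over all tested probe sets, threshold 0.05). The fit was tested on simulated data. The number of arrays limits the precision. Named genes are all PIP probe sets and up to 3 called aquaporins of other subfamilies per comparison. The 5 highest and 3 lowest correlations with the mean PIP profile are named too, as are the clock genes LHY and PCL1. Further named are the drought markers RAB21, LEA19 and RAB16B, and RCAA1, RBCS and GLO4 of the mesophyll list. From the other marker lists GLUA-2, SUT1, SWEET11 and NIP2-1 are named. The PIP members, gene lists and rules were chosen with earlier results of these data known. Alternatives changed the filter, an offset of 16 or 64, the normalization, the trend, the arrays fitted, a replicate block and a fold limit. No sequences were used here.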

Additional observations from a re-analysis of the deposited data

How the results depend on the processing

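Of the 5 comparisons, the count of PIP probe sets called stayed at 0 for osnox2 against WT under drought and for the difference between drought responses under every alternative run. For drought in osnox2 the count was 2 without the morning-like control arrays, 1 with a term for them, 2 (PIP2-1 S1_a_at at 2.08 and S1_x_at at 2.26) on 8 arrays that also lack replicate 1 of osnox2 drought, a setting added after seeing the data, and 0 to 4 with 1 array left out in turn. It was 0 to 1 with 1 array left out for drought in WT and for the genotypes under control, and 0 under the other alternatives. The filters, offsets, quantile normalization, centring, the fit without trend, the fold limit and the fit of the compared groups only moved no PIP count. With the replicate number as a block it was 0 in all 5 comparisons (all probe sets called: 18, 93, 17, 22 and 0, against 42, 170, 42, 33 and 0 without the block). To look for pairing, the mean of its group was first subtracted from each value of every tested probe set. What was left on same-numbered arrays correlated at -0.25 to 0.37, over 0.1 in 5 of 18 pairs. Both ends came from osnox2 control against WT control: replicate 2, where the clock states differ, and replicate 3, where both are evening-like. Replicate 1 of these groups, where both arrays are morning-like, had r = 0.34. Arrays of different numbers were not compared, so whether the numbers pair the arrays was not decided. Over all probe sets the calls ranged, with 1 array left out, over 2 to 197, 7 to 5505, 13 to 1249, 13 to 58 and 0 to 46 for drought in WT, drought in osnox2, the genotypes under control, the genotypes under drought and the difference between responses, and over 2 to 950, 5 to 596, 15 to 88, 17 to 189 and 0 to 8 under the others.

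Signs turned mainly with the morning-like arrays, and the cause was not tested. For PIP2-1, a, x and S2 stand for the probe sets S1_a_at, S1_x_at and S2_at, and for PIP2-2, s and at stand for S1_s_at and S1_at. Without the 3 arrays, drought in WT became -0.24 for PIP2-1 S2, -0.14 for PIP2-7 and 0.13 for PIP1-3. Drought in osnox2 became 1.96 and 2.14 for PIP2-1 a and x, 0.54 for PIP1-2, 0.44 for PIP1-1, 0.46 and 0.45 for PIP2-2 s and at, and 2.14 for PIP2-4. The genotypes under control became -1.04 and -1.10 for PIP2-1 a and x, -0.23 for PIP1-2, -0.55 for PIP1-1, and -0.63 and -1.29 for PIP2-2 s and at. The difference between responses became 1.12 and 1.34 for PIP2-1 a and x, 0.097 for PIP1-2, 0.075 for PIP1-1, 0.66 and 1.14 for PIP2-2 s and at, and 0.098 for PIP2-4. With a term for the 3 arrays, drought in WT became -0.068 for PIP2-7, 0.12 for PIP2-2 s and 0.059 for PIP1-3. Drought in osnox2 became 1.42, 1.62 and -0.055 for PIP2-1 a, x and S2, 0.35 for PIP1-2, -0.081 for PIP2-7, 0.13 for PIP1-1, 1.30 for PIP2-4 and 0.054 for PIP1-3. The genotypes under control became -0.24 and -0.32 for PIP2-1 a and x and -0.097 for PIP1-1, and the difference between responses 0.31, 0.56 and -0.41 for PIP2-1 a, x and S2 and -0.013 for PIP2-7. Quantile normalization turned PIP1-1 for drought in WT to -0.017 and PIP2-7 for the genotypes under drought to 0.032 (0.030 with centring), and offsets of 16 and 64 turned PIP2-4 there to -0.0060 and -0.095.

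With 1 array left out, values crossed 0 for drought in WT in PIP1-1 (-0.17 to 0.36), PIP1-3 (-0.87 to 0.13), PIP2-1 a (-0.30 to 0.84), x (-0.38 to 0.80) and S2 (-0.24 to 1.86), PIP2-4 (-0.87 to 2.04) and PIP2-7 (-0.14 to 0.34). They crossed 0 for drought in osnox2 in PIP2-1 a (-1.92 to 0.041) and x (-1.71 to 0.29), for the genotypes under control in PIP2-1 x (-0.017 to 1.99), and for the difference between responses in PIP2-1 x (-1.75 to 0.25) and S2 (-0.32 to 1.78). For the genotypes under drought they crossed 0 in PIP2-1 a (-0.11 to 0.26), PIP2-2 s (-0.064 to 0.12) and at (-0.54 to 0.16), PIP2-4 (-0.85 to 1.52) and PIP2-7 (-0.052 to 0.017). PIP2-6 kept its sign in all 5 comparisons under every alternative run. PIP2-4, at signals below the array medians on 6 arrays, is limited by low signal.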
